A study of Mus musculus with 6 samples.

Results

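The genes that take glucose to pyruvate and decide what becomes of pyruvate were followed in sorted vascular endothelial cells (VECs) of the mouse retina. The list holds 34 genes, chosen by name: every row of the deposited table whose gene name was one of the 34 was taken, of 55487 rows in all. Aldoa has 2 identifiers, so there were 35 rows, and 34 rows of 33 genes passed the filter of at least 10 reads in at least 3 libraries. Pdk4 did not.

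The table holds RNA-seq of retinas at postnatal day 7.5, with 3 libraries from tdTomato FL/+;Pdgf-icreER animals (control) and 3 from animals that carried, besides these, the floxed gene on both alleles, Bmal1 FL/FL (Bmal1;CKO). Both groups carried the tamoxifen-inducible Cre, which is driven by Pdgfb regulatory sequences, and the Cre-dependent tdTomato reporter, and both received tamoxifen daily from P0.5 to P2.5. All animals had the C57BL/6 J background. Cells positive for both GFP and tdTomato were sorted, and their RNA was amplified before library preparation. Values are counts divided by the size factor of the library (normalized counts), and the libraries are called control 1 to 3 and Bmal1;CKO 4 to 6, as in the table. The test was limma-trend, a linear model with a moderated variance, fitted to 20459 genes after taking log2 of the normalized count plus 1, and a positive log2 fold change means a higher level in Bmal1;CKO. Nothing in the labels ties a library to a litter or a day, so the p-values measure the spread between these 6 libraries.

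The libraries held 71145068 to 104017800 reads on genes, of which the members took 0.536% to 0.845%. The transcript of the targeted gene, listed as Arntl, had 2706 ± 915 normalized counts in control and 2314 ± 492 in Bmal1;CKO (SD, n = 3 each), and the groups overlapped. A single value stands for all exons of Arntl, so the floxed exon was not analysed here. By droplet digital PCR, the authors report significantly less Bmal1 transcript in sorted endothelial cells of the mutant. All but 1 of the 14 endothelial markers had at least 10 reads in every library. Slco1a4 was at 0 in at least 1 library. The summed endothelial markers lay between 191998 and 371607 normalized counts in control and between 116645 and 242396 in Bmal1;CKO. All 9 markers of microglia and macrophages (summed 1386180 to 4103350 in control, 2013410 to 3985840 in Bmal1;CKO) and all 12 rod markers (876060 to 1037840 and 669225 to 1064100) also had at least 10 reads in every library. Of the tested markers, 13 of 14 endothelial ones had a log2 fold change below 0 (median -0.45), as did 11 of 12 rod ones (median -0.26) and 6 of 8 bipolar cell ones (median -0.55), beside 8889 of all 20459 tested genes. It was above 0 for 8 of 9 microglial markers (median 0.40), all 7 of Muller glia (median 0.48) and 7 of 8 of cones (median 0.64). The summed Muller glia markers were the highest of these lists, at 4016120 to 16621100 normalized counts in control and 7349590 to 13527000 in Bmal1;CKO. That sum rests on the highest genes of its list, whose median per library was only 3724 to 8358 normalized counts. The median of the microglial list was 55378 to 118104, that of the rod list 37004.6 to 80001.5 and that of the endothelial list 3045 to 9109. The groups overlapped in the sum of every list. The part of these other cells in the values below was not tested. In such bulk RNA, fewer cells of a type and less RNA per cell cannot be told apart. Control library 1 stood apart: it held the lowest value of 36.4% of all tested genes and the highest value of 26.9%.

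Glycolysis splits glucose into pyruvate in the cytosol. Hexokinases trap the sugar, phosphofructokinase commits it, and pyruvate kinase closes the path. Pyruvate is then either reduced to lactate by lactate dehydrogenase and exported with a proton, or carried into mitochondria and oxidised by the pyruvate dehydrogenase complex, which the PDK kinases switch off. Sprouting endothelial cells are known for making most of their ATP from glycolysis, with PFKFB3 as a main activator. BMAL1, the protein that Bmal1 encodes, is the partner of CLOCK in a transcription factor that binds the E-box CACGTG.

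The E-box was looked for in the promoters of the members, taken from RefSeq on GRCm38.p6 as 250 bases before to 50 after each start. Of the 34 genes, 33 had an entry. Slc2a3 had none, so its promoter was not searched. Of the 33, 5 (15.2%) held CACGTG, a palindrome and so the same on both strands, in at least 1 promoter, against 8.09% of 27025 genes. Counted by promoter, 5 of 53 promoters of members held it (9.43%), against 7.15% of 32851. The windows around these letters are shown because the deleted factor binds this motif; the capitals mark the match, the sequences are written 5′ to 3′ on the strand of the gene, and Ldha, which encodes the lactate-forming dehydrogenase, has a pair of them. A match is a description of letters and not of binding.
Pfkfb2 (chr1:130715822-130715863, minus strand): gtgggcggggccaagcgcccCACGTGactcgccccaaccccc
Pfkfb3 (chr2:11502118-11502163, minus strand): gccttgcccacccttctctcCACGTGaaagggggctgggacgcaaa
Ldha, distal (chr7:46845639-46845684, plus strand): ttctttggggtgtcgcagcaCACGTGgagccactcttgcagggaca
Ldha, proximal (chr7:46845736-46845781, plus strand): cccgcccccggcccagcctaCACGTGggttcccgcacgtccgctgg
Pdk2 (chr11:95041472-95041517, minus strand): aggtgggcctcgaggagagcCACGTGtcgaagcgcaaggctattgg
Pfkm (chr15:98092433-98092478, plus strand): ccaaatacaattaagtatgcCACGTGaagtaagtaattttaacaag

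Across the list the groups differed little. No member reached an FDR under 0.05 in limma-trend (adjusted p 0.883 to 0.993), nor did any of the 20459 genes tested, 0% of them. At an unadjusted p under 0.05 there was 1 member of 34, Slc2a3, against 4.92% of all tested genes. The groups did not overlap for 1 member of 34, again Slc2a3, which is 2.94%, against 11.2% of all tested genes. The fitted log2 fold change was above 0 for 21 and below 0 for 13 of the 34 rows, with a median of 0.10, beside a median of 0.11 over all tested genes. It lay within 0.5 of 0 for 27 of the 34. The 95% interval stayed between -1 and 1, that is within a 2-fold difference either way, for 11 rows, and for the others the 6 libraries leave a larger difference possible. Under edgeR and DESeq2 the median over all genes was -0.03, so differences of about 0.1 carry no direction here.

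**Figure D1:**
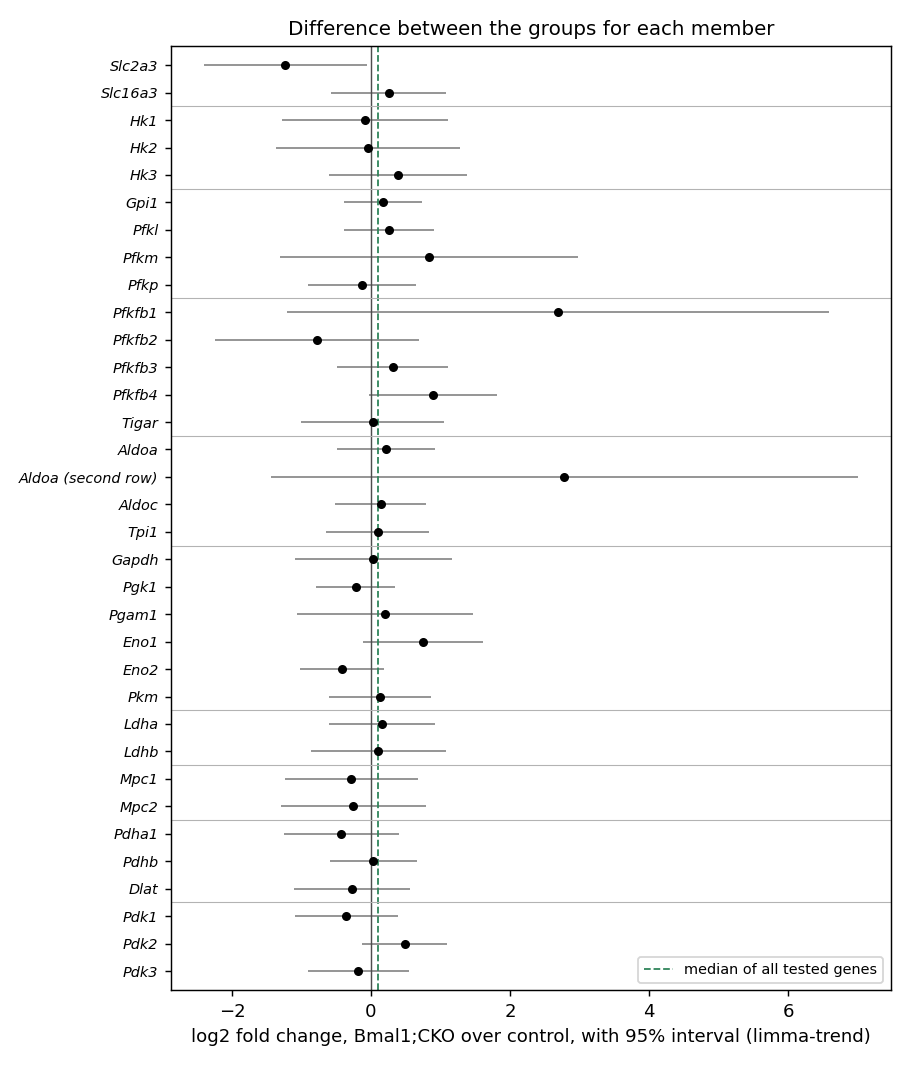
Log2 fold change of the 34 tested rows, Bmal1;CKO over control, with its 95% interval from limma-trend (3 libraries per group), ordered by role; the dashed line is the median of all tested genes at 0.11. Only the interval of Slc2a3 lies wholly on one side of 0, and the widest intervals belong to Pfkfb1 and the second row of Aldoa, both at 0 in control library 1.

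The spread between libraries was uneven. On the log2 scale the within-group SD had a median over the members of 0.56 in control and 0.26 in Bmal1;CKO, and it was larger in control for 28 of 34 rows (82.4%), against 75.0% of all tested genes. Control library 2 held the lowest value of 13 of the 34 rows (38.2%), against 18.3% of all genes, and control library 1 that of 10 (29.4%). Bmal1;CKO library 6 held the highest value of none of the 34, against 10.2% of all genes.

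**Figure D2:**
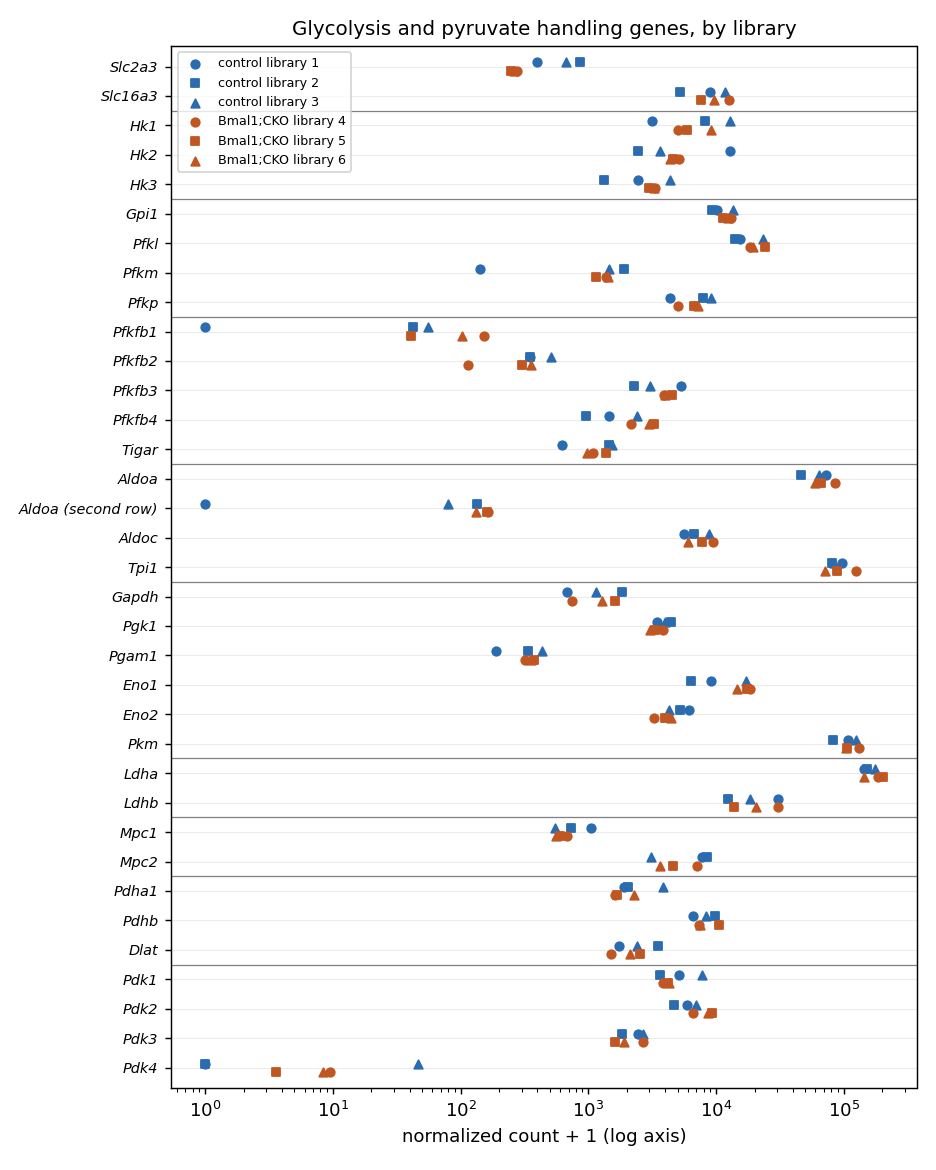
Normalized count + 1 of every member in each of the 6 libraries on a log axis, ordered by role from transporters at the top to pyruvate dehydrogenase kinases at the bottom. The levels span from Pdk4, with 0 to 45.7 normalized counts, to Ldha, with 144160 to 201396, and the colours of the groups separate for Slc2a3 alone.

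The list has 1 glucose transporter and 1 lactate exporter. Slc2a3 (ENSMUSG00000003153, chr6:122727809-122801640, minus strand of GRCm38) encodes GLUT3, a high-affinity glucose transporter best known from neurons. It had 397, 866 and 664 normalized counts in control libraries 1 to 3 and 274, 245 and 260 in Bmal1;CKO libraries 4 to 6. Every Bmal1;CKO library lay below every control library, and the mean was 642 ± 235 in control and 260 ± 14.5 in Bmal1;CKO (SD, n = 3 each). The log2 fold change was -1.23 (standard error 0.50, 95% interval -2.40 to -0.06, unadjusted p = 0.0416 and adjusted p = 0.883 from limma-trend), and the two-sided exact permutation test gave p = 0.1, the smallest that 3 libraries against 3 allow. Leaving out 1 library at a time moved the log2 fold change between -1.54, without control library 1, and -0.98, without control library 2. The unadjusted p from limma-trend was then 0.0061 and 0.134. The adjusted p ran from 0.466 to 1.000 over all alternatives. The level of Slc2a3 was low within the list. Per kilobase of exon it averaged 62.3 normalized counts, position 31 of the 34 genes. Slc16a3, which encodes the lactate exporter MCT4, had 8957, 5195 and 11728 in control and 12626, 7569 and 9653 in Bmal1;CKO. Its groups overlapped (log2 fold change 0.25, standard error 0.36).

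The 3 hexokinases, which phosphorylate glucose, were at similar levels per kilobase, and none differed between the groups beyond the spread of the controls. Hk1, the housekeeping isozyme, had 3147, 8173 and 12833 normalized counts in control and 5079, 5917 and 9210 in Bmal1;CKO. Hk2, the isozyme induced by hypoxia and growth signals, had 12942, 2428 and 3609 in control and 5125, 4641 and 4355 in Bmal1;CKO. Hk3, known from myeloid cells, had 2466, 1324 and 4346 in control and 3298, 2980 and 3242 in Bmal1;CKO. Control library 1 held the lowest Hk1 and the highest Hk2 of all 6 libraries, while the Bmal1;CKO libraries were close together for Hk2 and Hk3. Without control library 1 the log2 fold change of Hk2 went from -0.04 to 0.67, and the groups that were left did not overlap. The same held for 25.7% of all tested genes without that library.

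Gpi1, which turns glucose 6-phosphate into fructose 6-phosphate, had 9244 to 13600 normalized counts over the 6 libraries (log2 fold change 0.17, standard error 0.24). Among the phosphofructokinases, which take the committed step, Pfkl, the liver type, was the highest per kilobase, with 14126 to 24346 normalized counts (log2 fold change 0.26, standard error 0.28). Pfkp, the platelet type, had 4396 to 9201 (log2 fold change -0.13, standard error 0.33). Pfkm, the muscle type, had 141, 1914 and 1461 in control and 1383, 1139 and 1436 in Bmal1;CKO. Control library 1 was about an order of magnitude below the rest for Pfkm, and the log2 fold change went from 0.84 (standard error 0.92) to -0.35 when that library was left out.

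Fructose 2,6-bisphosphate is the strongest activator of phosphofructokinase. The PFKFB enzymes make and break it, and Tigar breaks it. Pfkfb3, the isozyme with the highest kinase activity, had 5276, 2287 and 3046 normalized counts in control and 3904, 4514 and 3979 in Bmal1;CKO, and the controls spanned the whole range of the Bmal1;CKO libraries (log2 fold change 0.31, standard error 0.34). Pfkfb4 had 1444, 961 and 2384 in control and 2152, 3293 and 3008 in Bmal1;CKO. Only control library 3 overlapped the Bmal1;CKO libraries for Pfkfb4, with a log2 fold change of 0.90 (standard error 0.40, 95% interval -0.02 to 1.81, adjusted p = 0.883 from limma-trend) and a two-sided exact permutation p of 0.2. Leaving out control library 2 took it to 0.58, and leaving out control library 3 to 1.23. Pfkfb2, the heart isozyme, had 348, 346 and 509 in control and 113, 302 and 355 in Bmal1;CKO, and the low value of Bmal1;CKO library 4 set most of its log2 fold change of -0.78 (standard error 0.63), which was -0.27 without that library. Exons of Pfkfb2 overlap other genes over 19.5% of their bases. Pfkfb1, the liver isozyme, was at 0 reads in control library 1, which allows up to 3 reads, and at 39.7 to 152 normalized counts in the other 5. Its fitted fold change therefore depends on the pseudocount and is not read as a size. Tigar had 616, 1449 and 1537 in control and 1079, 1380 and 970 in Bmal1;CKO. The sign of its log2 fold change of 0.02 changed with the tool.

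The enzymes that split and interconvert the sugar phosphates were among the most abundant members. Aldoa, the ubiquitous aldolase (ENSMUSG00000030695), had 72421, 46034 and 63660 normalized counts in control and 85037, 66467 and 59018 in Bmal1;CKO (log2 fold change 0.22, standard error 0.30). The second Aldoa row, ENSMUSG00000114515 at chr7:126800790-126809108, is a separate short gene model beside it with at most 163 normalized counts and 0 reads in control library 1. Aldoc, the brain aldolase, had 5624 to 9412 (log2 fold change 0.14, standard error 0.28). Tpi1, triose phosphate isomerase, had 96315, 81506 and 83597 in control and 125106, 88815 and 71878 in Bmal1;CKO, so that the Bmal1;CKO libraries held both the highest and the lowest value (log2 fold change 0.09, standard error 0.32).

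In lower glycolysis, where ATP and NADH are made, Eno1 and Eno2 pointed in opposite directions without separating. Eno1, the ubiquitous enolase (chr4:150236721-150248879, plus strand), had 9053, 6392 and 17093 in control and 18410, 17495 and 14635 in Bmal1;CKO. Control library 3 sat among the Bmal1;CKO libraries, and the log2 fold change was 0.75 (standard error 0.37, 95% interval -0.11 to 1.61, adjusted p = 0.883 from limma-trend). It was 0.43 without control library 2 and 1.14 without control library 3. Eno2, the neuronal enolase, had 6127, 5211 and 4308 in control and 3273, 4015 and 4404 in Bmal1;CKO, with overlap only between control library 3 and Bmal1;CKO library 6 (log2 fold change -0.42, standard error 0.26). Pkm, pyruvate kinase, had 81740 to 131922 (log2 fold change 0.13, standard error 0.31). Pgk1, phosphoglycerate kinase, had 3448, 4435 and 4012 in control and 3809, 3310 and 3062 in Bmal1;CKO (log2 fold change -0.22, standard error 0.24). Gapdh and Pgam1 had 678 to 1838 and 189 to 432, the lowest per kilobase of these enzymes, with log2 fold changes of 0.03 (standard error 0.49) and 0.20 (standard error 0.54).

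Ldha, which reduces pyruvate to lactate, had the most normalized counts in its own row of all members. It had 144607, 152829 and 176753 normalized counts in control and 186628, 201396 and 144160 in Bmal1;CKO. The highest pair of values belonged to Bmal1;CKO and so did the lowest value, with a log2 fold change of 0.16 (standard error 0.33, 95% interval -0.61 to 0.93). Ldhb, the isozyme that favours the reverse reaction, had 30543, 12432 and 18318 in control and 30408, 13778 and 20712 in Bmal1;CKO, so the 3 libraries of each group covered almost the same range. Ldha, Pkm, Tpi1 and Aldoa together made up 70.6% to 75.7% of the normalized counts of the list in every library.

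Pyruvate enters mitochondria through MPC1 and MPC2. Mpc1 had 547 to 1040 and Mpc2 had 3072 to 8560 normalized counts, with log2 fold changes of -0.28 (standard error 0.41) and -0.25 (standard error 0.45). The pyruvate dehydrogenase complex was represented by Pdha1 and Pdhb, the subunits of its first enzyme, and Dlat, its acetyltransferase. Pdha1 had 1913, 2056 and 3823 in control and 1626, 1677 and 2265 in Bmal1;CKO, and its log2 fold change of -0.43 (standard error 0.36) was -0.11 without control library 3. Pdhb had 6606 to 10544 (log2 fold change 0.04, standard error 0.27), and Dlat had 1518 to 3510 (log2 fold change -0.28, standard error 0.36).

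The PDK kinases inactivate this complex. Pdk2 (chr11:95026258-95041354, minus strand) had 5908, 4726 and 7016 normalized counts in control and 6620, 9373 and 8717 in Bmal1;CKO. Control library 3 and Bmal1;CKO library 4 overlapped, and the log2 fold change was 0.49 (standard error 0.26, 95% interval -0.12 to 1.10). Pdk1, the isozyme induced by hypoxia, had 5115, 3635 and 7822 in control and 3833, 4221 and 4314 in Bmal1;CKO (log2 fold change -0.35, standard error 0.32). Pdk3 had 1626 to 2703 (log2 fold change -0.18, standard error 0.31). Pdk4, the isozyme of fasting, had 0, 0 and 64 reads in control and 6, 3 and 9 in Bmal1;CKO, so that it was close to the limit of detection in 5 of 6 libraries and no fold is given.

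The members were ordered by the mean normalized count of their own row per kilobase of exon. Ldha (50673), Tpi1 (33129), Aldoa (22480), Pkm (21905) and Ldhb (13396) came first. The lowest Ldhb library was above the highest library of any gene further down. Neighbours among these 5 overlapped in their range over the libraries. From Pfkl (2867), the sixth, to Pgk1 (1640), each gene overlapped the next, and Pgk1 did not overlap with Eno2 (968) below it. All later neighbours overlapped. The last positions belonged to Slc2a3 (62.3), Pfkfb2 (45.3), Pfkfb1 (16.2) and Pdk4 (3.05).

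Isozyme shares within a family do not depend on the scaling of a library and were taken from counts per kilobase. Of the 17 shares, 3 had groups that did not overlap, where 11.2% of all tested genes did not, and the shares of Pdk1 and Pdk2 are parts of the same sum. Each of the 3 reached p = 0.1 in a two-sided exact permutation test, the smallest possible, or 0.567 after Benjamini-Hochberg adjustment over the 17. Pdk2 took 53.7%, 55.8% and 51.7% of the Pdk family in control and 57.7%, 71.6% and 67.9% in Bmal1;CKO, with means of 53.7% ± 2.06 and 65.7% ± 7.15 (SD, n = 3 each). Pdk1 took 18.9%, 17.4% and 23.4% in control and 13.6%, 13.1% and 13.6% in Bmal1;CKO. Pfkfb2 took 4.61%, 8.55% and 7.19% of the Pfkfb family in control and 1.53%, 3.15% and 4.02% in Bmal1;CKO. The other shares overlapped. Pfkl held 64.5% to 86.1% of the phosphofructokinases, Aldoa held 88.5% to 93.5% of the pair with Aldoc, and Ldha held 69.2% to 87.4% of the pair with Ldhb. The hexokinase shares were the most uneven: Hk2 made up 67.6% in control library 1 and 18.4% to 36.5% in the other libraries. Eno1 held 56.4%, 51.8% and 77.6% of the enolase pair in control and 83.1%, 79.2% and 74.4% in Bmal1;CKO (p = 0.2, two-sided exact permutation test).

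**Figure D3:**
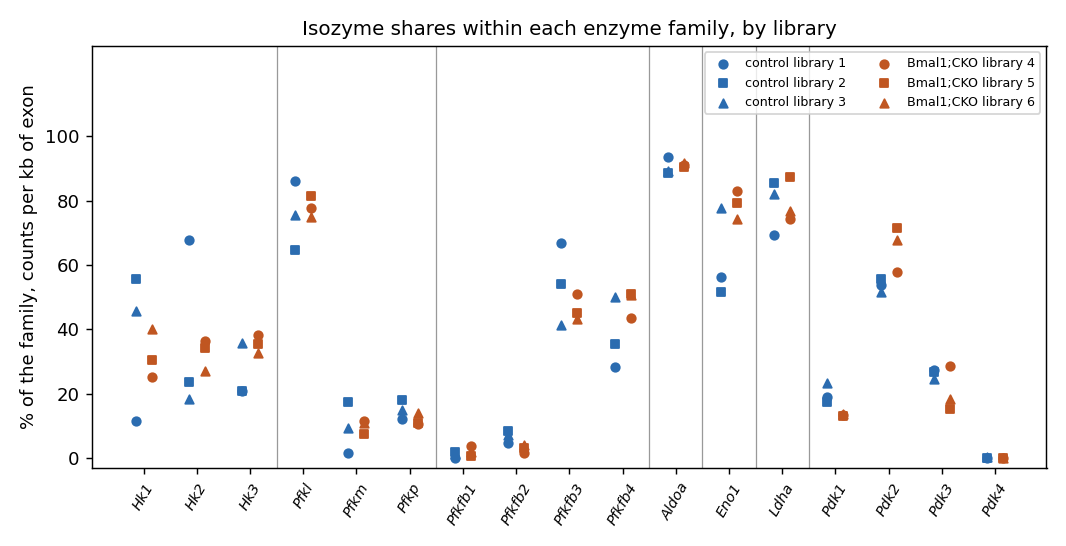
Share of each isozyme in its family, in percent of normalized counts per kilobase of exon, with 1 point per library; for pairs only the first gene is drawn, and vertical lines divide families. Pdk2 lies higher and Pdk1 and Pfkfb2 lie lower in all 3 Bmal1;CKO libraries, and the Hk2 share of control library 1 stands at 67.6%.

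Many members have near-identical copies in the mouse genome, most of them pseudogenes made from spliced mRNA, and reads of a gene and its copy cannot be told apart where their letters are the same. A copy was taken as a row whose transcript matches at least 50% of the coding sequence of a member at 90% identity or more. There were 203 copies of 14 members, 197 of them annotated as pseudogenes and 161 of them copies of Gapdh. For 8 of the 14, the copies together held more normalized counts than the gene itself. Over 50-base windows of the coding sequence, 100% of the windows of Pgk1 and Pgam1, 94.2% of Gapdh, 83.3% of Eno1, 65.8% of Pfkfb2 and 52.9% of Pkm also occur in transcripts of other genes, and 0% for 21 rows. Pfkfb2 is not among the 14 members with copies, and its exons overlap those of Gm29427 and Yod1.

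The following stretches of 60 bases cross an exon junction of the member and are shown with the same stretch of the copy, read from GRCm38 with the GENCODE M21 gene models, 5′ to 3′ on the coding strand, with capitals for letters that differ from the member. They show that the copies hold joined exons and how few letters separate the rows.
Ldhb, exons 2 and 3: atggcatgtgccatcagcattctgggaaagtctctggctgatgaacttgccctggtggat
Ldhb-ps (chr19:21937380-21938381, plus strand): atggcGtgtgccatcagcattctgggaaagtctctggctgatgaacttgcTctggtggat
Gpi1, exons 7 and 8: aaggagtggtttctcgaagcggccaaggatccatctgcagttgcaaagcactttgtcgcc
Gpi-ps (chr8:5639580-5641011, plus strand): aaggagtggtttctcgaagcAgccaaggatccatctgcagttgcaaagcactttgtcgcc
Eno1, exons 2 and 3: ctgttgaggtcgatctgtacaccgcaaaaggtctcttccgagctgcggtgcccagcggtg
Gm4735 (chr2:80837141-80838442, plus strand): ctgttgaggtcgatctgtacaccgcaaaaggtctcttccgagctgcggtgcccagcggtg
Mpc1, exons 4 and 5: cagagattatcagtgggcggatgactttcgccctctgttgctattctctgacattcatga
Mpc1-ps (chr12:110858565-110858894, minus strand): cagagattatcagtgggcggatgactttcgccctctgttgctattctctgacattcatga
Gapdh, exons 5 and 6: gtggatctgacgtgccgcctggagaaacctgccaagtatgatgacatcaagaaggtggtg
Gm9619 (chr8:91688374-91689135, minus strand): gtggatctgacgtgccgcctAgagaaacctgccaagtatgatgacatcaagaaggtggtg

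Ldhb-ps had 105280 to 271785 normalized counts, against 12432 to 30543 for Ldhb, which held 10.0% to 12.3% of the sum. Gm6560, a copy of Pkm on chromosome 5 that matches its coding sequence at 98.4%, had 239721 to 380594, and Pkm itself held 25.4% to 30.7% of the sum with its 5 copies. Gpi-ps had 53534 to 96448, and Gpi1 held at most 17.4% of the sum. For Eno1, whose copies Eno1b and Gm4735 had 32032 to 57749 and 24242 to 51229, the own row held 10.0% to 20.0%. Mpc1 held 1.77% to 2.74%, beside 19884 to 43587 in Mpc1-ps. Gm6123, a copy of Pdhb on chromosome 1, had 22664 to 33288, and Pdhb held 19.4% to 24.5%. Ldha (77.0% to 81.2%), Aldoa (73.7% to 79.2%), Tpi1 (87.7% to 91.2%) and Mpc2 (99.4% to 99.8%) kept most of the sum in their own row. The low position of Gapdh in the order above goes with an own share of 1.75% to 13.6%.

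**Figure D4:**
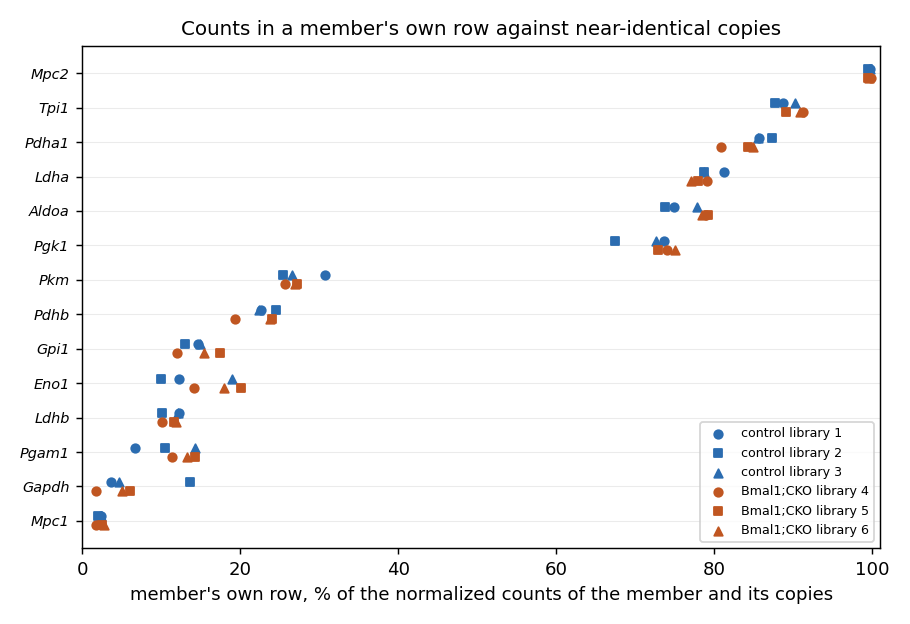
Share of the normalized counts of a member and its near-identical copies that lies in the member's own row, in percent, for the 14 members with copies and with 1 point per library. Mpc1, Gapdh, Pgam1, Ldhb, Eno1, Gpi1, Pdhb and Pkm lie below 31% in every library. The groups separate for Aldoa and Pdha1 only, 2 of the 14, where 11.2% of all tested genes separate.

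Adding the copies to the member's row, a step chosen after seeing the data, left 13 of the 14 members with the same sign of fold change and gave 2 of 14 sums whose groups did not overlap (14.3%), near the 11.2% of all tested genes. The Gapdh sum had 18888, 13506 and 24966 normalized counts in control and 42665, 27066 and 25201 in Bmal1;CKO, with a log2 fold change of 0.73 (standard error 0.33, adjusted p = 0.882 from limma-trend), while the own row of Gapdh had 0.03. Control library 3 was close to Bmal1;CKO library 6, so the separation is narrow. The Pgam1 sum had 2820, 3240 and 3023 in control and 2785, 2634 and 2672 in Bmal1;CKO (log2 fold change -0.16, standard error 0.24), and its own row had 0.20, the opposite sign. The Eno1 sum had 73610, 63822 and 90350 in control and 129930, 87251 and 81771 in Bmal1;CKO, with a log2 fold change of 0.38 (standard error 0.32), against 0.75 for its own row. With the copies the Eno1 share of the enolase pair was 91.3% to 94.8% in control and 94.2% to 97.2% in Bmal1;CKO, and the difference between the group means went from 17.0 to 2.93 percentage points. The Ldha share of the Ldh pair was then 25.4% to 50.7% in place of 69.2% to 87.4%. Which dehydrogenase was more abundant therefore depends on the row to which these reads belong. The first place of Ldha among the members by count depends on it too. The Pkm sum had means of 382102 in control and 429092 in Bmal1;CKO, above 199025 and 227128 for the Ldha sum. For the share of the own row, the groups did not overlap for 2 of the 14 (14.3%), again near the 11.2% of all tested genes. They were Aldoa, at 73.7% to 77.8% in control and 78.4% to 79.2% in Bmal1;CKO, and Pdha1, at 85.5% to 87.3% and 80.9% to 84.9%. Each had p = 0.1 in a two-sided exact permutation test, the smallest possible.

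Of the 38 other genes of glucose handling that were followed, 35 were tested, and 4 of these were at an unadjusted p under 0.05 (11.4%, against 4.92% of all tested genes), 0 at an FDR under 0.05 in limma-trend. The groups did not overlap for 5 (14.3%, against 11.2%), 1 higher and 4 lower in Bmal1;CKO. The median log2 fold change was 0.18. The 7 genes of glycogen handling held none of the 5 and the 8 of the pentose phosphate pathway held 1.

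Slc16a1, which encodes MCT1, a carrier of lactate, pyruvate and ketone bodies of the blood-brain and blood-retina barrier, had the lowest p of these genes. It had 1854, 2741 and 2032 normalized counts in control and 648, 433 and 1166 in Bmal1;CKO. Every Bmal1;CKO library lay below every control library, with means of 2209 ± 469 and 749 ± 377 (SD, n = 3 each) and a log2 fold change of -1.66 (standard error 0.44, 95% interval -2.67 to -0.64, unadjusted p = 0.00568 and adjusted p = 0.883 from limma-trend). It lay between -2.04 and -1.32 when libraries were left out 1 at a time, and the adjusted p ran from 0.160 with DESeq2 to 1.000. Slc16a7, which encodes MCT2, a high-affinity carrier of the same family, had 872, 793 and 453 in control and 90, 352 and 355 in Bmal1;CKO. Its log2 fold change of -1.59 (standard error 0.68, unadjusted p = 0.0498 from limma-trend) was -0.94 without Bmal1;CKO library 4, with an unadjusted p of 0.135 from limma-trend. Its unadjusted p was also above the threshold with edgeR (0.0688 with TMM, 0.0646 with the deposited size factors), limma-voom (0.0557), log2 CPM (0.0520) and a pseudocount of 10 (0.0506), so that its place among the 4 depends on the tool and on single libraries. The lactate exporter of the list, Slc16a3, did not go with them, at 0.25. Beside these carriers and Slc2a3, most endothelial, rod and bipolar cell markers also had a log2 fold change below 0, as given above. The summed endothelial markers had 371607, 206493 and 191998 normalized counts in control and 209855, 116645 and 242396 in Bmal1;CKO. The part of these cells in the values of the carriers was not tested.

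Slc2a1, which encodes GLUT1, the main glucose transporter of barrier endothelium, had 29317, 28131 and 26851 normalized counts in control and 20703, 15934 and 35907 in Bmal1;CKO. The controls were close together, and the Bmal1;CKO libraries lay on both sides of them (log2 fold change -0.30, standard error 0.33). Dld, the dihydrolipoamide dehydrogenase subunit that the pyruvate dehydrogenase complex shares with other complexes, had 6816, 6164 and 5222 in control and 2972, 3959 and 3753 in Bmal1;CKO. The groups did not overlap, and the log2 fold change was -0.77 (standard error 0.25, unadjusted p = 0.0152 and adjusted p = 0.883 from limma-trend), between -0.87 and -0.65 without 1 library. Hkdc1, a hexokinase-like enzyme, had 1442, 1931 and 2304 in control and 2458, 3598 and 3341 in Bmal1;CKO, and was the only one of the 5 that was higher (log2 fold change 0.73, standard error 0.31, unadjusted p = 0.0444 from limma-trend). From limma-trend, the unadjusted p of Hkdc1 was 0.148 without Bmal1;CKO library 5 and 0.122 without library 6. It was 0.104 without control library 1 and 0.0739 without control library 2. With edgeR and TMM (0.0514), limma-voom (0.0505) and the filter of 10 reads in every library (0.0525) it was also above the threshold. It stayed below in the other alternatives, so that its place among the 4 depends on the tool and on single libraries too. The unadjusted p of Dld was 0.0526 from limma-trend without Bmal1;CKO library 4. Rpia, which interconverts pentose phosphates, had 347, 396 and 210 in control and 166, 204 and 169 in Bmal1;CKO. Its groups were apart by a few counts only (log2 fold change -0.78, standard error 0.58).

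**Figure D5:**
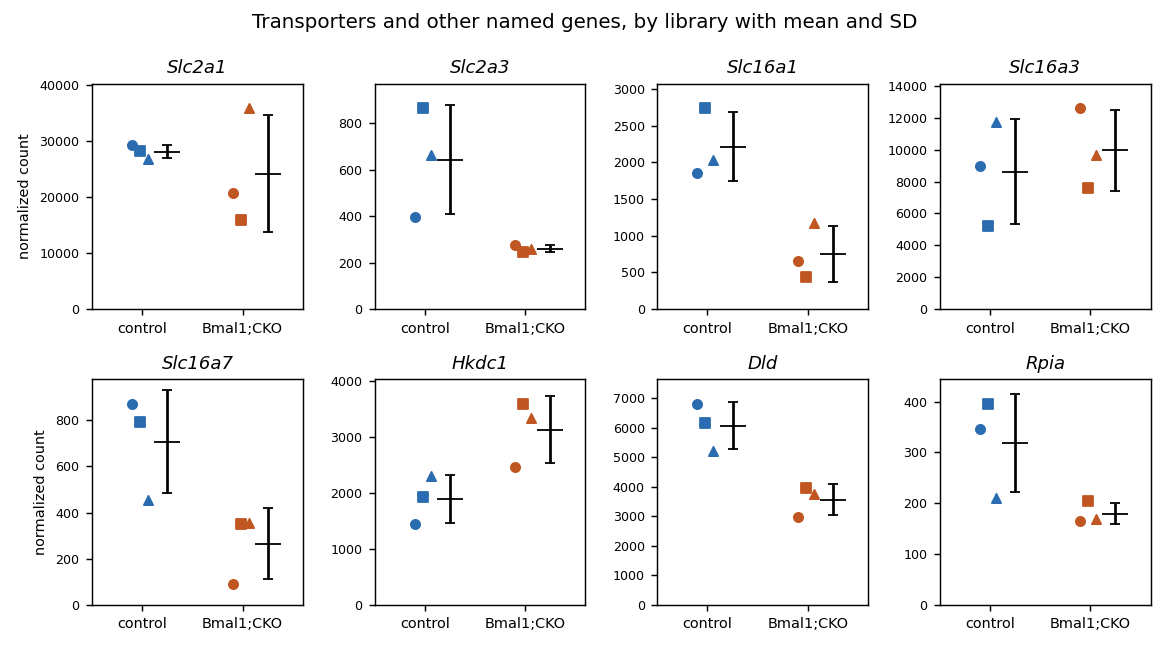
Normalized counts of the glucose transporters Slc2a1 and Slc2a3, the lactate and pyruvate carriers Slc16a1, Slc16a3 and Slc16a7, and Hkdc1, Dld and Rpia, with 1 point per library (circle, square and triangle for libraries 1 to 3 or 4 to 6) and the mean and SD of each group of 3. Slc2a3, Slc16a1, Slc16a7, Dld and Rpia are lower and Hkdc1 is higher in all 3 Bmal1;CKO libraries, whereas Slc2a1 and Slc16a3 overlap.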

How the data were processed

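VECs were sorted from P7.5 retinas, and 3 control and 3 Bmal1;CKO libraries were sequenced (Smart v4, Nextera XT). Per the labels and the methods, FastQC, Trimmomatic, Bowtie (to mm10, GRCm38), featureCounts and DESeq2 were run in turn by the authors; versions, strand use and the handling of reads with several matches are not given in the sources used here. The deposited table holds a signal, the count divided by the size factor of the library. The deposited columns of the authors' comparison (base mean, log2 fold change and its error, a test score, p-value and adjusted p-value) were not used. Column numbers disagree with the labels' sample numbers, so each column is a replicate of its genotype with no match to an animal.

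Dividing each column by its smallest step gave whole reads for 100% of values (tolerance 0.01) and size factors of 0.711 to 1.40. The filter kept genes that 3 or more libraries held at 10 or more reads. They were tested with limma-trend (limma 3.58.1, R 4.3.3) on log2(normalized count + 1) with Benjamini-Hochberg adjustment. Fold changes of low genes on this scale depend on the pseudocount and can lie above those of a count model. The log2 fold change of Pfkfb1 was 2.69, against 3.02 with a pseudocount of 0.5, 1.58 with 10 and 1.58 with edgeR and TMM. On the recovered reads, edgeR 4.0.16 called 0 genes and DESeq2 1.42.0 called 67 at an FDR under 0.05, with 0 members among them. Scripts were tested on simulated data. The upper limit for 0 reads is 3 reads, for counting error only. Coordinates, exon lengths and strands come from GENCODE M21; copies were found with BLAST 2.17.0 as rows that match at least 50% of a member's coding sequence at 90% identity or more over at least 25% of their own exons. Figures were made with matplotlib 3.10.9.

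The members and lists were chosen with earlier results of these data known. All members are named, and of the other lists the genes at an unadjusted p under 0.05 or whose groups do not overlap, with Slc2a1 added after its values were seen; of copies, up to 5 per member. Alternatives were edgeR (TMM or deposited size factors), DESeq2, voom, pseudocounts of 0.5 and 10, filters of 1 read in total and 10 reads in every library, log2 CPM, each library left out, plain shares, and copies added to members.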

Additional observations from a re-analysis of the deposited data

How the results depend on the processing

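Genes at an FDR under 0.05 numbered 0 in limma-trend on log2(normalized count + 1), with 1007 at an unadjusted p under 0.05. The number was 67 with DESeq2, 1 when genes needed 1 read in total, 1 when they needed 10 reads in each library, and 0 with the other tools, scalings and pseudocounts. It ran from 0 to 6 when libraries were left out 1 at a time. The 1 member at an unadjusted p under 0.05, Slc2a3, was at 0 members with a pseudocount of 10, and 0 to 3 members passed without 1 library. Hk2, Pfkfb3 and Slc2a3 passed without control library 1, and Eno1 and Pfkfb4 without control library 3. Of all 20459 tested genes, 1769 passed without control library 1 and 2444 without control library 3. Members whose groups did not overlap numbered 1, 3 with copies added, and 2 to 10 without 1 library, where fewer values make separation easier: 30.7% of all tested genes did not overlap without control library 3. The median log2 fold change of the members, 0.10, lay between -0.026, without control library 1, and 0.24, without control library 3. Isozyme shares whose groups did not overlap numbered 3, also as plain counts, and 3 to 8 without 1 library. With copies added they were the same 3, which could not change because the Pdk and Pfkfb members have no copies.

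No paired analysis was possible because the columns of the table carry no replicate number of the labels.

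The sign was followed for 39 rows: 34 of members, with both of Aldoa, and 5 of other genes whose groups did not overlap. Slc2a1 was not among them. Of the 39, 24 kept the sign of their log2 fold change under every alternative run. The other 15 changed it when 1 library was left out, and 3 of the 15 also did so with another tool or with copies. Tigar (0.02) came to -0.076 with edgeR and TMM, -0.071 with edgeR and the deposited size factors, -0.072 with DESeq2 and -0.028 with voom. Gapdh (0.03) came to -0.0049 with edgeR and TMM, -0.011 with edgeR and the deposited size factors and -0.011 with DESeq2. Pgam1 (0.20) came to -0.16 with copies added. The ranges without 1 library that crossed 0 were -0.074 to 0.51 for Slc16a3, -0.65 to 0.36 for Hk1, -0.54 to 0.67 for Hk2, -0.046 to 0.81 for Hk3, -0.35 to 1.52 for Pfkm, -0.45 to 0.083 for Pfkp and -0.40 to 0.26 for Tigar. They were -0.015 to 0.31 for Aldoc, -0.12 to 0.28 for Tpi1, -0.33 to 0.39 for Gapdh, -0.13 to 0.46 for Pgam1, -0.043 to 0.27 for Pkm, -0.20 to 0.45 for Ldhb, -0.72 to 0.017 for Mpc2 and -0.13 to 0.17 for Pdhb. The cause of these changes was not tested.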
